A study of Mus musculus with 4 samples.

Results

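The early response of mouse keratinocytes to oncostatin M (OSM) was described as the change in the level of each gene after 6 h of the cytokine. For every gene the intensity with OSM was set over the intensity without it, and the ratio was put on the log2 scale, so that 1 is 2-fold higher and -1 is 2-fold lower. Genes were kept if they lay above 20, the lowest intensity in the table, on either of the 6 h arrays. This left 8101 of the 22180 genes with a named probe set, a group of probes read together as 1 value.

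The cells were PDVC57, a line of transformed murine keratinocytes, kept in medium with little serum. They were left non stimulated (NS) or were given recombinant murine OSM at 10 ng/ml, and RNA was taken at 6 h or at 24 h, which gave the 4 groups NS 6 h, OSM 6 h, NS 24 h and OSM 24 h. Each group was 1 Affymetrix array, so no ratio has a replicate error, no test was run, and a fold describes 1 array over 1 array. The model is a single transformed line, not skin, and nothing in the labels says whether the 4 arrays came from separate experiments.

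OSM is a cytokine of the IL-6 family. It binds a receptor made of the OSM receptor chain (Osmr) and the shared chain gp130 (Il6st), which carry Janus kinases that phosphorylate STAT transcription factors, STAT3 above all. STAT3 switches on its own gene and that of SOCS3, an inhibitor that binds the receptor and ends the signal. In skin, OSM is known as a product of infiltrating immune cells that acts on keratinocytes in wounds and inflamed lesions.

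The cells carried most of the measured markers of their label. Of 10 genes of keratinocyte or general epithelial identity 9 were measured. All 9 lay above the floor on at least 1 of the 6 h arrays, among them Krt14 (218 with NS), Cdh1 (256.5) and Epcam (260.1). Dsg3 passed the floor only with OSM, at 27.1 at 6 h, and stood at the floor on both NS arrays. None of 24 markers of other skin cell types (fibroblast, leukocyte, melanocyte and endothelial genes) lay above the floor on any of the 4 arrays. The simple epithelial keratins Krt8 and Krt18, usual in transformed keratinocytes, were at 640.4 and 480.4 with NS and at 634 and 463 with OSM. Between 72.5% and 73.0% of all probe sets stood at the floor on each array. The highest value of each array was between 4505 and 4582.

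Most genes differed little between the 6 h arrays. The median log2 ratio over the 8101 genes was -0.00066, their SD was 0.18, and the 1st and 99th percentiles were -0.42 and 0.52. The SD was 0.20 for genes whose brighter array was between 20 and 40 and 0.14 for those above 320. Against this background OSM was 2-fold or more above NS in 12 genes (0.148% of the genes) and 2-fold or more below it in 1 (0.0123%). At 1.5-fold the counts were 60 higher (0.741%) and 22 lower (0.272%). Among named genes the larger differences lay mainly on the higher side, while 49.8% of them had a ratio above 0. The 2715 probe sets above the floor that are paired with no gene had the other balance, with 72 that were 1.5-fold higher and 137 that were 1.5-fold lower. On the higher side the genes next to each threshold were close to each other. Stat3 lay just inside 2-fold (log2 ratio 1.00) and Socs3, at the floor with NS and so only bounded, just outside it (0.99). At 1.5-fold higher the RIKEN clone 4833417C18Rik, also bounded by the floor, was just inside (0.59) and Adpgk just outside (0.58). On the lower side Snord13 (-1.02) and the predicted gene Gm13056 (-0.88) lay on either side of 2-fold, and Snora73b (-0.59) and Rnf24 (-0.58, at the floor with OSM) on either side of 1.5-fold.

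**Figure D1:**
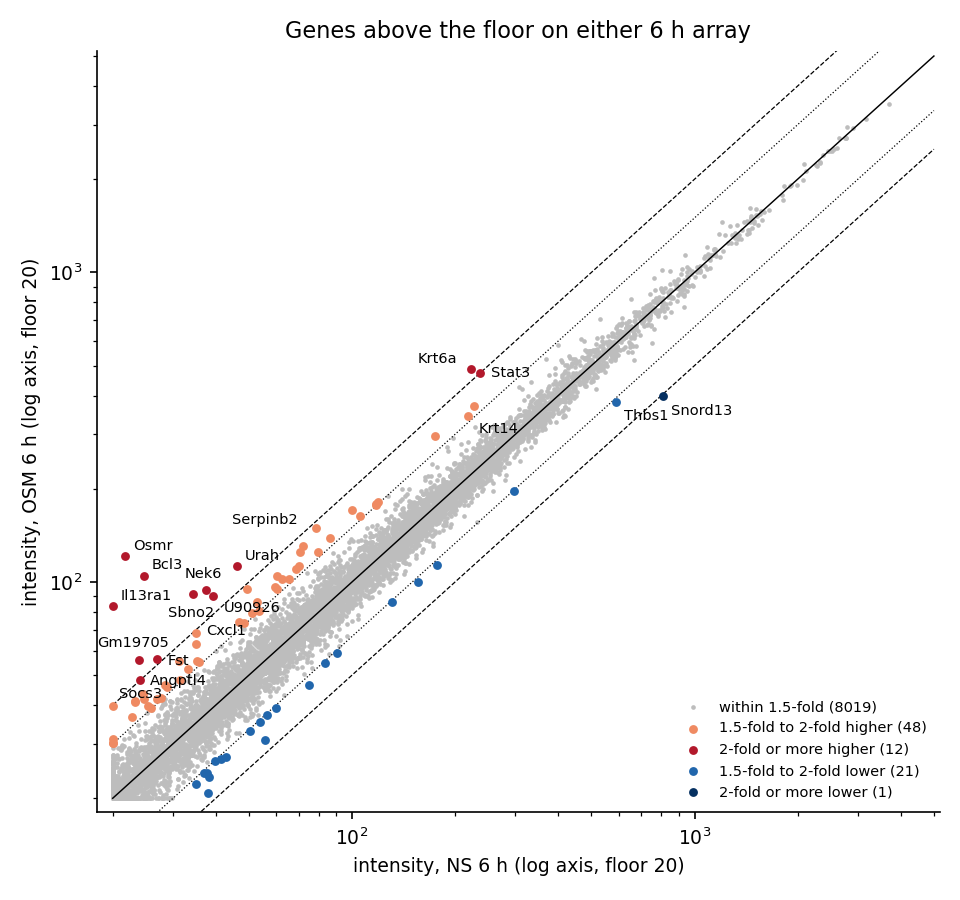
Intensity of the 8101 genes on the NS 6 h array (x axis) and the OSM 6 h array (y axis), both on log axes that start near the floor of 20. The solid line marks equal intensity, the dotted lines 1.5-fold and the dashed lines 2-fold, and red and blue points are the genes past 1.5-fold, with 60 above and 22 below.

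Among the genes of the OSM receptor complex 1 passed 1.5-fold, that of the OSM receptor chain. Osmr was at 21.7 on the NS 6 h array, just above the floor, and at 121 with OSM, which is 5.56-fold higher and the largest of the folds measured above the floor on both arrays. The 24 h arrays gave 22.7 with NS and 135 with OSM, so that both OSM arrays lay above both NS arrays. The gp130 gene Il6st was already at 205 with NS and was at 215 with OSM. Il6ra, the receptor chain for IL-6, was at 43.9 and 63.5, a log2 ratio of 0.53 that is short of 1.5-fold. The chains that pair gp130 for LIF (Lifr) and OSMR for IL-31 (Il31ra) stood at the floor on both 6 h arrays. Of the Janus kinases, Jak1 was at 361 with NS and 348.5 with OSM, and Jak2 was at 206 and 208. Tyk2 was dimmer, at 47.9 and 57.4. Over the list of receptor chains, kinases and adaptors, 10 of 13 genes were above the floor, 1 was past 1.5-fold, and the median log2 ratio was 0.018.

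Downstream of the receptor 1 STAT gene passed 2-fold, Stat3. It was already bright with NS, at 237, and was at 474 with OSM, 2.00-fold higher, with 312 and 498 at 24 h. The feedback inhibitor Socs3 was at the floor on the NS 6 h array and at 39.7 with OSM, at least 1.98-fold higher. At 24 h it was at 22.1 with NS and 54.85 with OSM. Both genes thus had their OSM arrays above their NS arrays at each time. A second probe set paired with Socs3 was at the floor on both 6 h arrays. No other member of these families passed 1.5-fold. Stat6, which serves IL-4 and IL-13, was at 158 and 172.5. Stat4 and the inhibitor genes Socs1, Socs2, Socs6 and Cish were at the floor on both arrays. Socs4 had the lowest log2 ratio of the 13 STAT, SOCS and PIAS genes above the floor, -0.34, and the median of the 13 was -0.0046.

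Of the gene lists, that of known targets of gp130 and STAT3 held the most genes that were 1.5-fold higher. Several shorter lists had a larger share, such as 6 of 9 genes for cornified envelope and differentiation. Of 35 genes on the gp130 and STAT3 list 27 were above the floor, and 23 of the 27 had a ratio above 0. Of the 27, 10 were at least 1.5-fold higher, against 0.741% of all genes. Of these 10, 4 were past 2-fold, and none of the 27 was 1.5-fold lower. The median log2 ratio of the 27 was 0.41, against -0.00066 for all genes. Socs3, Lcn2 and Icam1 passed the floor only on the OSM array and could not have a ratio below 0. Of the other 24 genes, 20 had a ratio above 0 and 9 were 1.5-fold higher, with a median of 0.41. The list was written with earlier results of these arrays known, so its count is no independent evidence of its direction. The next largest measured fold was that of Bcl3, a nuclear member of the IκB family that works with NF-κB subunits in transcription. It was at 24.6 with NS and 105 with OSM at 6 h, 4.26-fold higher, and at 45.1 and 120.5 at 24 h. Sbno2, a transcriptional regulator described downstream of STAT3 in the IL-10 response of macrophages, was at 34.25 and 91.3, 2.66-fold higher, and at 57.8 and 94.4 at 24 h. Its NS level was the part that differed between the times, since the OSM arrays were nearly equal. Bcl6, a transcriptional repressor, was at 25.3 and 39.8 (1.57-fold), and Zfp36, which binds AU-rich mRNAs and speeds their decay, at 27.7 and 42 (1.52-fold). Nfkbiz, an atypical IκB protein that drives inflammatory genes in keratinocytes, was at 59.6 and 95.95 (1.61-fold). Timp1, an inhibitor of matrix metalloproteinases, was at 72.1 and 131 (1.82-fold). Other well known members did not reach 1.5-fold at 6 h. Junb was at 88.2 and 124, Ier3 at 529 and 706, and Hif1a at 145 and 192.5. Myc and Mcl1 had log2 ratios of 0.15 and 0.13, which are within the spread of all genes. Lcn2, the iron-binding protein lipocalin 2, was at the floor with NS and at 26.05 with OSM at 6 h, and at 20.7 and 77.1 at 24 h.

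STAT dimers bind the palindrome TTCNNNGAA, which reads the same on both strands, so windows around the gene starts were searched for it. A window held 250 bases before a start and 50 after it, in RefSeq's sequences for the GRCm38.p6 build. Of the 60 genes that were 1.5-fold higher, 42 had a window and 9 of the 42 held a match (21.4%). The share was 7.77% over the 6522 genes above the floor that had a window, and 9.55% over all 27025 genes of the table. The share was 7.58% of 211 genes that were 1.25-fold to 1.5-fold higher, 7.73% of 6120 genes within 1.25-fold, 5.84% of 137 genes that were 1.25-fold to 1.5-fold lower, and 1 of 12 genes that were 1.5-fold lower (8.33%, Klhl28). The 9 genes were Bcl6, Fam111a, Sbno2, Serpinb2, Sgk1, Socs3, Tgm1, Urah and Zfp36. The higher genes had 1.45 windows each against 1.26 for all genes above the floor, and no test was run on these shares. A match describes letters in a window and is not a site of binding. The 250 bases before the start are printed for 5 of the 9 genes and for Osmr, whose window held no match. The 5 were chosen to cover the feedback inhibitor, the regulators, an enzyme of the cornified envelope and the enzyme Urah. Sbno2 had 3 windows, and Bcl6, Tgm1 and Urah had 2 each. For these genes the window with the most matches is shown, and a tie went to one that held TTCCCGGAA or TTCCGGGAA. Each printed window runs 5′ to 3′ on the strand of the gene, with matches in capitals.
Socs3, chr11:117969367-117969616, minus strand: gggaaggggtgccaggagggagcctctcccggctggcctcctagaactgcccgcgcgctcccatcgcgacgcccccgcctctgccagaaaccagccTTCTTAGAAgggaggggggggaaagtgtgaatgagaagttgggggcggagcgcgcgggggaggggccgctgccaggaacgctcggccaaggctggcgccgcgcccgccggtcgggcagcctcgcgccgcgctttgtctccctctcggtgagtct
Sbno2, chr10:80101188-80101437, minus strand: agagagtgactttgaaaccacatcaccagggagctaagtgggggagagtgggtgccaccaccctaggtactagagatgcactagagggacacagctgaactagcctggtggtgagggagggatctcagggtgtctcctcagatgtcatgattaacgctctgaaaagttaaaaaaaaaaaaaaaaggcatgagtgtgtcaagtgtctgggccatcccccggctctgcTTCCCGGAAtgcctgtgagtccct
Bcl6, chr16:23981284-23981533, minus strand: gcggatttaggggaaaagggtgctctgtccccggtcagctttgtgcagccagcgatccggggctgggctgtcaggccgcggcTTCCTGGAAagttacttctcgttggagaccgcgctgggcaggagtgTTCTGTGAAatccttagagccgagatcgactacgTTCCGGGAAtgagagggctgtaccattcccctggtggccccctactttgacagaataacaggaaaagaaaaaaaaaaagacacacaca
Tgm1, chr14:55713493-55713742, minus strand: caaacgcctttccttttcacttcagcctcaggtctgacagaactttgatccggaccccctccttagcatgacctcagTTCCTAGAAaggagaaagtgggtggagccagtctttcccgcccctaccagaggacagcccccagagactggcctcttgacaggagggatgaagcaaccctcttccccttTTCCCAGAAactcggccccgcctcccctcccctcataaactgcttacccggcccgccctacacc
Urah, chr7:140834888-140835137, plus strand: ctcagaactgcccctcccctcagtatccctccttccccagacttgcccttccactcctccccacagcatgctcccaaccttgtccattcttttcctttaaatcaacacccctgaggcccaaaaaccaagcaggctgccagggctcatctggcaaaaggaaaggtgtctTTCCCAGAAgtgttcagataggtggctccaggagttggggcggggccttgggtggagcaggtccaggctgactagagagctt
Osmr, chr15:6874314-6874563, minus strand: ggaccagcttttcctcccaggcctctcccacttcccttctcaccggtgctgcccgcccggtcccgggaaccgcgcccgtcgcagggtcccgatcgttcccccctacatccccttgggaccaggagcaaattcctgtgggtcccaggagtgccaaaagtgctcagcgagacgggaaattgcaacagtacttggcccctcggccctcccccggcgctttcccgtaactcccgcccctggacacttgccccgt
Bcl6 held 3 matches in the window shown and Tgm1 held 2, while Socs3, Sbno2 and Urah held 1 each. Of the 12 genes past 2-fold on the higher side 9 had a window, and 2 of the 9 held a match. Bcl3, Il13ra1, Nek6, Krt6a and Stat3 are not among the genes with a match, which says nothing of STAT3 at other places in these genes. Which of them lacked a window is not given here, so the absence of a match need not mean that a window was searched.

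**Figure D2:**
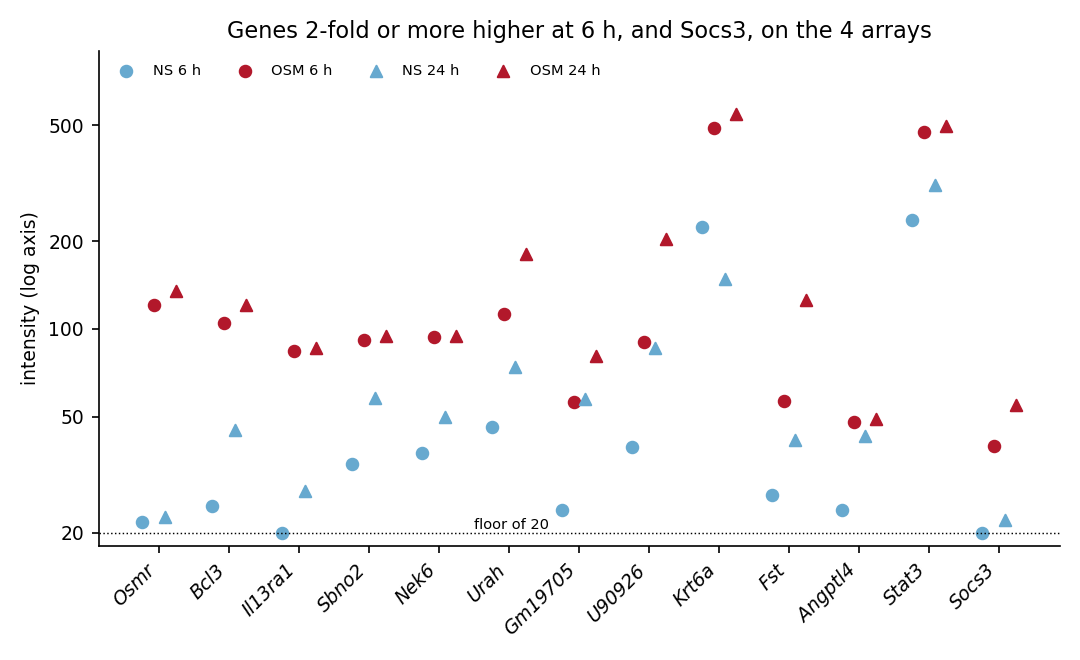
Intensity (log axis) of the 12 genes past 2-fold on the higher side at 6 h, and of Socs3, on each of the 4 arrays; circles are 6 h, triangles 24 h, blue is NS and red is OSM, and the dotted line is the floor of 20. Both red points lie above both blue points for 11 of the 12 genes and for Socs3, the exception being Gm19705, where NS 24 h (57.5) lay above OSM 6 h (56.0).

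Receptor chains for the type 2 cytokines IL-4 and IL-13 were higher as well. Il13ra1, which pairs with the IL-4 receptor to bind either cytokine, was at the floor with NS and at 83.65 with OSM at 6 h, at least 4.18-fold higher. At 24 h it was at 27.8 and 86.2, so the OSM level was alike at the 2 times. Il4ra, the signalling chain of that receptor, was at 70.4 and 125 at 6 h, 1.77-fold higher, and at 88.8 and 139 at 24 h. Both chains of the type II IL-4 receptor were therefore above their NS level in both pairs of arrays. Crlf2, the receptor chain for TSLP, had a log2 ratio of 0.095. The other 6 measured genes of this list, among them the decoy receptor Il13ra2 and the cytokine genes Tslp and Il33, stood at the floor.

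Few genes of immediate early and MAPK feedback responses passed 1.5-fold, though most lay above NS. Of 19 immediate early transcription factors above the floor, 14 had a ratio above 0, 1 was past 1.5-fold and the median log2 ratio was 0.24. That gene was Klf10, a zinc finger factor first known as an early TGF-β target, at 52.8 and 86.4 (1.64-fold). Maff passed the floor only on the OSM array and could not have a ratio below 0. Of the other 18 factors 13 had a ratio above 0, against 49.8% of all 8101 genes. Fos and Egr1, the classic members, were at the floor on both arrays, and Jun was at 89.5 and 106.5. Of 19 regulators of MAPK feedback and mRNA decay 14 had a ratio above 0, 1 was past 1.5-fold, Zfp36, and the median was 0.17. Dusp8 and Spry4 passed the floor only on the OSM array, and of the other 17 regulators 12 had a ratio above 0. Zc3h12a, an RNase that degrades inflammatory mRNAs, was at 28.2 and 40.8 at 6 h and at 80.2 and 59.4 at 24 h, so the order of NS and OSM turned between the times. Among 16 NF-κB subunits, inhibitors and targets above the floor, Bcl3 and Nfkbiz were past 1.5-fold and the median was 0.11.

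Further transcription and signalling genes were among those past 1.5-fold. Nek6, a kinase of the mitotic spindle, was at 37.4 and 93.9 at 6 h, 2.51-fold higher, and at 49.9 and 94.6 at 24 h. Bhlhe40, a basic helix-loop-helix repressor of the clock and hypoxia pathways, was at 48.3 and 73.8 at 6 h, but at 126 and 131 at 24 h. Twist1, a factor known for epithelial-mesenchymal transition, was at 33.1 and 52.3 at 6 h and at 38.2 and 39.9 at 24 h. For both of these the difference was near 0 in the later pair. Ehf, an ETS factor of epithelia, was at 50.9 and 79.1 at 6 h and at 106 and 103 at 24 h. Rgs16, which shortens G protein signalling, was at 70.2 and 113 at 6 h, and at 226 and 191 at 24 h. Its NS level differed between the times by more than OSM differed from NS at either. Sgk1, a serum- and glucocorticoid-induced kinase, was at 119 and 181 (1.52-fold), and the Notch ligand gene Dll1 at 35.3 and 55.6 (1.57-fold). Prag1 (1.8-fold), Fhl3 (1.61-fold) and Sh2d5 (1.51-fold) completed the named signalling genes.

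Keratins of activated and basal keratinocytes were higher by unequal amounts. Krt6a, a keratin of wound edges and hyperproliferative epidermis, was at 223 with NS and 488 with OSM at 6 h, 2.19-fold higher, and at 149 and 545 at 24 h. Krt17, induced in the same settings, was at 174 and 295.5 (1.69-fold), and at 239 and 382 at 24 h. Their wound partners Krt6b and Krt16 stood at the floor on both 6 h arrays. Krt14, the keratin of the basal layer, was at 218 and 342.5 (1.57-fold), and it was the 1 gene past 1.5-fold of 13 basal keratinocyte and hemidesmosome genes above the floor, whose median was 0.11. Trp63, which encodes the p63 factor of basal cells, was at 68.9 and 92.2. The simple keratins Krt8 and Krt18 had log2 ratios of -0.014 and -0.053, so these keratins did not share the difference.

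Of the cornified envelope and differentiation genes, 6 of the 9 above the floor were 1.5-fold higher, and the median log2 ratio was 0.69. This list, too, was written with earlier results known, and it counts Ecm1, Stom and Cwh43, which are not parts of the envelope. Without these 3 genes, 3 of 6 were 1.5-fold higher. The other 20 of the 29 genes stood at the floor, among them Krt1 and Krt10, the keratins that mark spinous differentiation. The 6 genes do not stand for the whole program. Ecm1, an extracellular matrix protein of the epidermis, was at 49.4 and 94.7 (1.92-fold), and at 70.5 and 117 at 24 h. Tgm1, the transglutaminase that cross-links the envelope, was at 31.15 and 55.5 (1.78-fold). Sbsn and Dmkn, secreted proteins of the upper epidermis that are encoded in 1 gene cluster, had different levels. Sbsn was near the floor at 23.3 with NS and at 40.9 with OSM, and Dmkn was at 117 and 178. Both had larger ratios at 24 h, with a log2 ratio of at least 1.16 for Sbsn, whose NS 24 h array was at the floor, and 1.08 for Dmkn. Stom, the membrane protein stomatin, was at 226.5 and 371 (1.64-fold), and Cwh43 at 85.9 and 139 (1.62-fold). Ivl, which encodes the envelope protein involucrin, had a log2 ratio of 0.18.

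**Figure D3:**
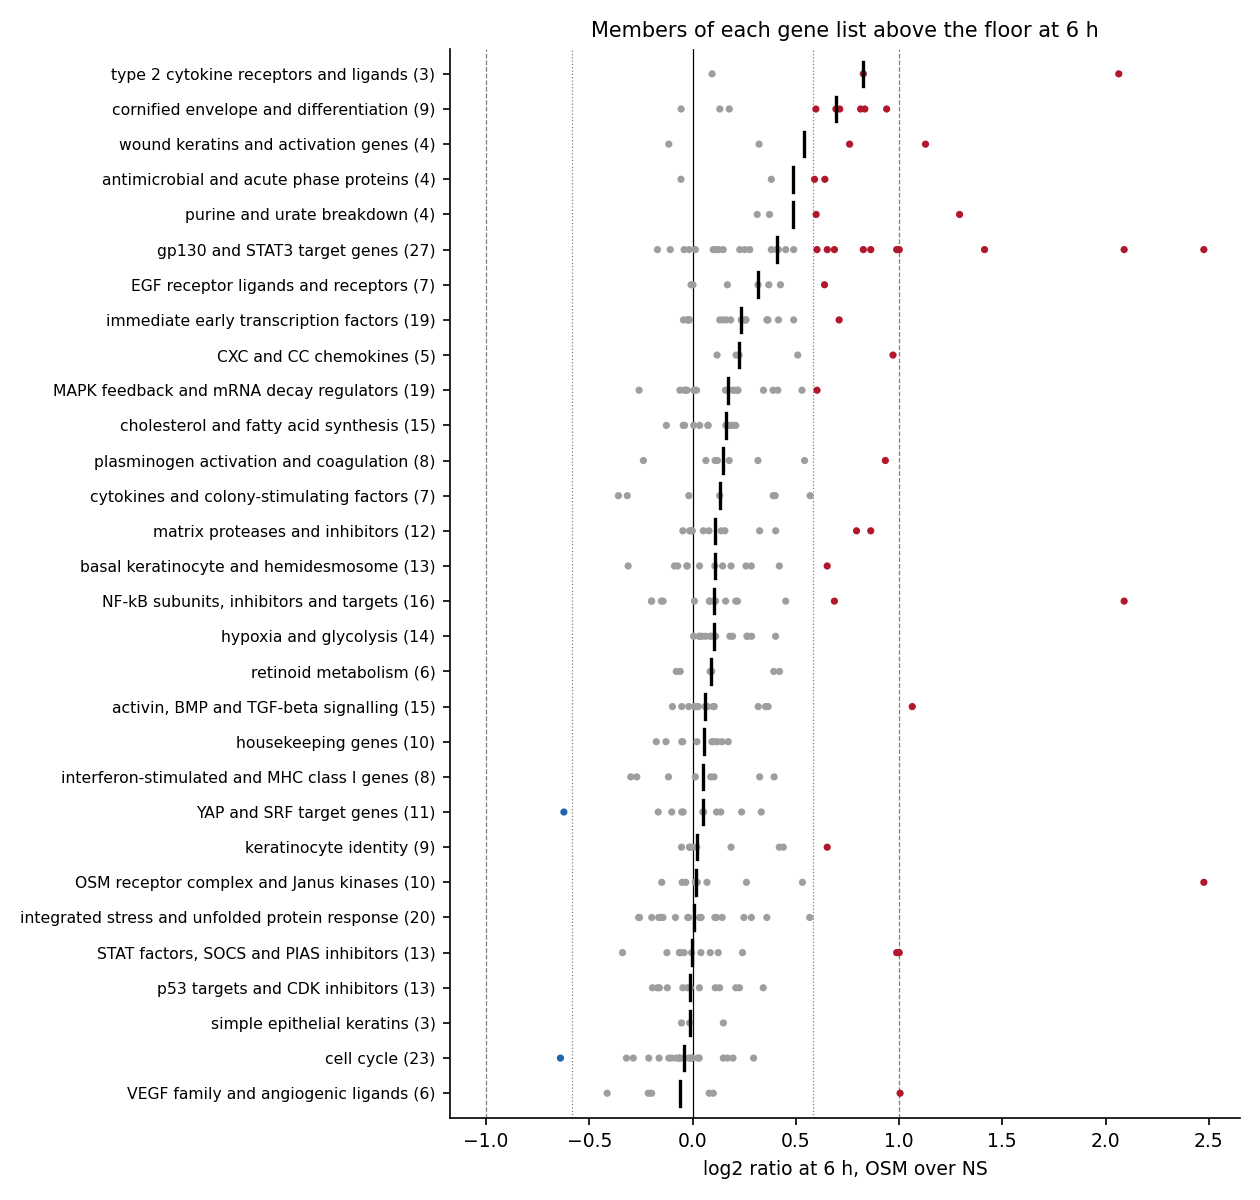
Log2 ratio of OSM 6 h over NS 6 h (x axis) of each gene above the floor in 30 gene lists (y axis, number of genes in brackets), with a black bar at each list's median and lines at 1.5-fold (dotted) and 2-fold (dashed). Red points are 1.5-fold or more higher and blue points 1.5-fold or more lower; the medians run from -0.059 for the VEGF family to 0.83 for the type 2 cytokine genes.

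Secreted factors were a mixed group. Serpinb2, an inhibitor of plasminogen activators, was at 78.3 with NS and 149.6 with OSM at 6 h, 1.91-fold higher, and at 70.8 and 264 at 24 h. Fst encodes follistatin, which binds and blocks activins. It was at 26.9 and 56.3 at 6 h, 2.09-fold higher, and at 41.65 and 125 at 24 h. It was the 1 gene past 1.5-fold of 15 genes of activin, BMP and TGF-β signalling above the floor, whose median was 0.061. Tgfbi, a matrix protein named for its induction by TGF-β, was at 23.2 and 41.2 at 6 h and close to the floor at 24 h, with 21.9 and 27.1. Angptl4, an inhibitor of lipoprotein lipase, was at 24 and 48.1 at 6 h, 2.01-fold higher, and at 42.8 and 49.2 at 24 h. The OSM level of Angptl4 was alike at both times and the NS level was not. Ereg, an EGF receptor ligand, was at 65.5 and 102 (1.56-fold), while the ligand Hbegf was at 170.5 and 220.3. Adam8, a membrane metalloproteinase, was at 60.45 and 105 (1.73-fold), and Nppb, which encodes a natriuretic peptide, was at 60.2 and 94.9 (1.58-fold). Slpi, an inhibitor of neutrophil elastase, was at the floor with NS and at 31.2 with OSM, at least 1.56-fold higher. Cp, the copper carrier ceruloplasmin, was likewise at the floor and at 30.1, at least 1.51-fold higher. Both were above 40 on the 24 h NS array, at 48.2 for Slpi and 42.8 for Cp, higher than on the OSM 6 h array.

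Cxcl1 and Cxcl5, chemokines that attract neutrophils, lay above NS at 6 h and below it at 24 h. Cxcl1 was at 34.9 with NS and 68.5 with OSM at 6 h, 1.96-fold higher, but at 189.8 and 120.1 at 24 h. Cxcl5 was at 368 and 523 at 6 h, short of 1.5-fold, and at 1067 and 774 at 24 h. In both genes each 24 h array was brighter than each 6 h array. Cxcl2 was near the floor at 6 h, at 22 and 25.7. Of 24 chemokine genes 5 were above the floor, all 5 with a ratio above 0 and a median of 0.23. Over all 8101 genes 49.8% had a ratio above 0. Of 27 cytokine and colony-stimulating factor genes 7 were above the floor and none was past 1.5-fold. The nearest was Il24, a cytokine of the IL-10 family, at 33.5 and 49.7. Il1a, the alarmin IL-1α, was at 465 and 609.6.

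Enzymes of purine and urate breakdown were a small group in which all 4 genes above the floor had a ratio above 0, against 49.8% of all 8101 genes. This list was also written with earlier results of these arrays known, so its count is no independent evidence of its direction. Urah, the hydrolase that acts on hydroxyisourate after uricase, was at 46 and 113 at 6 h, 2.45-fold higher, and at 74.1 and 181 at 24 h. Xdh, the xanthine dehydrogenase that makes urate, was at 117.5 and 178 (1.51-fold), and at 176 and 286 at 24 h. Uox, the uricase between these steps, stood at the floor. Among redox genes Glrx, a glutaredoxin, was at 79.6 and 125 (1.57-fold), and Atox1, a copper chaperone, at 46.7 and 74.1 (1.59-fold). The cystine transporter gene Slc7a11 was at 197 and 292, just short of 1.5-fold. The cytoskeletal gene Tubb3, a tubulin best known in neurons, was at 99.8 and 170.4 (1.71-fold). The non-coding or predicted genes past 2-fold were U90926, at 39.3 and 90.3 (2.3-fold), and Gm19705, at 23.8 and 56 (2.35-fold).

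Several well known pathways showed no gene past 1.5-fold in either direction. None was past it among 8 interferon-stimulated and MHC class I genes above the floor (median 0.051), 15 genes of cholesterol and fatty acid synthesis (0.16), 14 of hypoxia and glycolysis (0.10), 20 of the integrated stress and unfolded protein responses (0.0075), 13 p53 targets and cell cycle inhibitors (-0.011), 6 retinoid genes (0.089) or 10 housekeeping genes (0.058). All 14 genes of hypoxia and glycolysis had a ratio above 0, against 49.8% of all 8101 genes. The largest log2 ratio of the 14 was 0.40, for Pfkp. The number of arrays limits the precision, and a ratio within 1.5-fold does not show that a gene was equal.

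The 22 genes that were 1.5-fold lower with OSM were less often protein-coding than the 60 that were higher. Of the 60, 57 were protein-coding. Of the 22, 12 were protein-coding, 3 were microRNA (miRNA) genes, 3 small nucleolar RNA (snoRNA) genes, 3 long non-coding RNAs and 1 a pseudogene. All 8101 genes held 7837 protein-coding, 44 miRNA, 60 snoRNA and 73 long non-coding RNA genes. With both NS arrays averaged as the control, 6 of the 22 stayed 1.5-fold lower. The median intensity of the brighter 6 h array was 56.1 for the 22 genes, 85.0 for the 60 and 88.1 for all genes. Among the protein-coding genes the brightest was Thbs1, which encodes thrombospondin 1, a matrix protein that activates latent TGF-β. It was at 589 with NS and 382 with OSM at 6 h, 1.54-fold lower, and at 975 and 390.3 at 24 h. Palmd, the membrane-associated protein palmdelphin, was at 131 and 85.9 (1.52-fold lower), and at 95 and 44.8 at 24 h. Thbs1 and Palmd were the 2 genes of the 22 that were also at least 1.5-fold lower in the 24 h pair, and both were past 2-fold there. Thbs1 was the 1 gene of 11 YAP and SRF targets above the floor that was past 1.5-fold, and their median was 0.050.

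Among the lower genes were 3 of DNA synthesis and repair. Tyms, the thymidylate synthase, was at 156 with NS and 99.9 with OSM at 6 h (1.56-fold lower), and at 112 and 107 at 24 h. Rfc5, a subunit of the clamp loader, was at 83.2 and 54.9 (1.52-fold lower), and Parpbp, a regulator of homologous recombination, at 53.9 and 35.4 (1.52-fold lower). In these genes the NS 6 h array was the highest of the 4, and the other 3 arrays lay closer together for Tyms and Rfc5. Over a list of 23 cell cycle genes above the floor, which holds Tyms but not Rfc5 or Parpbp, the median was -0.041, with 6 ratios above 0, and Tyms was the 1 gene past 1.5-fold. Mki67, the proliferation marker Ki-67, had a log2 ratio of -0.29 and the replication factor gene E2f1 one of -0.32. Rrm2, also a gene of DNA synthesis, had the highest of the list, 0.30, followed by Aurka (0.20) and Plk1 (0.17). The lower genes named here do not stand for the whole list.

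Syne1, which encodes the giant nuclear envelope protein nesprin-1, is the 1 lower gene that could be read from many probe sets. The probe set that stands for the gene was at 177 with NS and 113 with OSM at 6 h, and at 122 and 103 at 24 h. Of its 59 probe sets 34 were above the floor at 6 h, 33 of them were lower with OSM, and 13 were at least 1.5-fold lower. Their log2 ratios ran from -0.81 to 0.022 with a median of -0.53, and their median intensity was 54.0 with NS and 37.0 with OSM. In the 24 h pair 31 of 32 were lower with a median of -0.20, and 1 was past 1.5-fold. The probe sets share the same arrays and are no replicates of the condition. The 5 other genes with at least 5 probe sets above the floor had medians between -0.14 (Taf1d) and 0.14 (Actg1).

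The lower small RNA genes were led by Snord13, a snoRNA of ribosomal RNA processing, which was bright at 809.6 with NS and at 399 with OSM, 2.03-fold lower. At 24 h it was at 678 and 578. It was the only gene past 2-fold on the lower side. Snora73b was at 297 and 196.5 at 6 h, and Snord43 at 37 and 24.1. The 60 snoRNA genes above the floor had a median log2 ratio of -0.0029, with 32 below 0, so these 3 genes were not part of a difference of the whole class. The miRNA genes lay lower as a class. Of 44 above the floor 39 had a ratio below 0 and the median was -0.19, against 0.00092 for 7837 protein-coding genes. Among dim genes, with the brighter array between 20 and 80, the medians were -0.19 for 34 miRNA genes and 0.0024 for 3580 protein-coding genes. In the 24 h pair the miRNA median was 0, with 20 ratios below 0 and 18 above. Of the 44 genes 11 were at the floor with OSM, so they were kept only through the NS array and could not have a ratio above 0. Over the other 33 genes 28 had a ratio below 0 and the median was -0.22. The median intensity of the 33 was 46.3 on the NS 6 h array, 41.8 with OSM at 6 h, and 40.4 and 42.4 with NS and OSM at 24 h. How far the NS 6 h array alone sets the miRNA ratios was not tested.

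Mature sequences of the 3 miRNA genes that were 1.5-fold lower are given as RefSeq holds them. For Mir185 only the 3p arm is shown, and its other arm is not. The 4 sequences shown differ in the seed, the stretch that pairs with targets. They are from the GRCm38.p6 build, 5′ to 3′, with the seed (bases 2 to 8) in capitals.
mmu-miR-31-5p, chr4:88910614-88910635, minus strand: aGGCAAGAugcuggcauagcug
mmu-miR-31-3p, chr4:88910577-88910599, minus strand: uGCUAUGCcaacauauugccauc
mmu-miR-761, chr4:109017669-109017690, plus strand: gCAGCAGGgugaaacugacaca
mmu-miR-185-3p, chr16:18327405-18327425, minus strand: aGGGGCUGgcuuuccucuggu
The annotation names the gene, and neither the arm nor whether the mature RNA or a longer transcript was read. The values therefore cannot be split between the arms or taken as levels of the mature sequences. Mir31, whose product is known to be raised in psoriatic and wounded epidermis, was at 74.6 with NS and 46.4 with OSM at 6 h, 1.61-fold lower, and at 74.1 and 74.1 at 24 h. Mir761 was at 90.2 and 59.1 (1.53-fold lower) and Mir185 at 42.7 and 27.15 (1.57-fold lower). In the 24 h pair the log2 ratios of Mir31, Mir761 and Mir185 were -0.00032, 0.047 and 0.19, so the difference at 6 h was not present in the later pair.

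**Figure D4:**
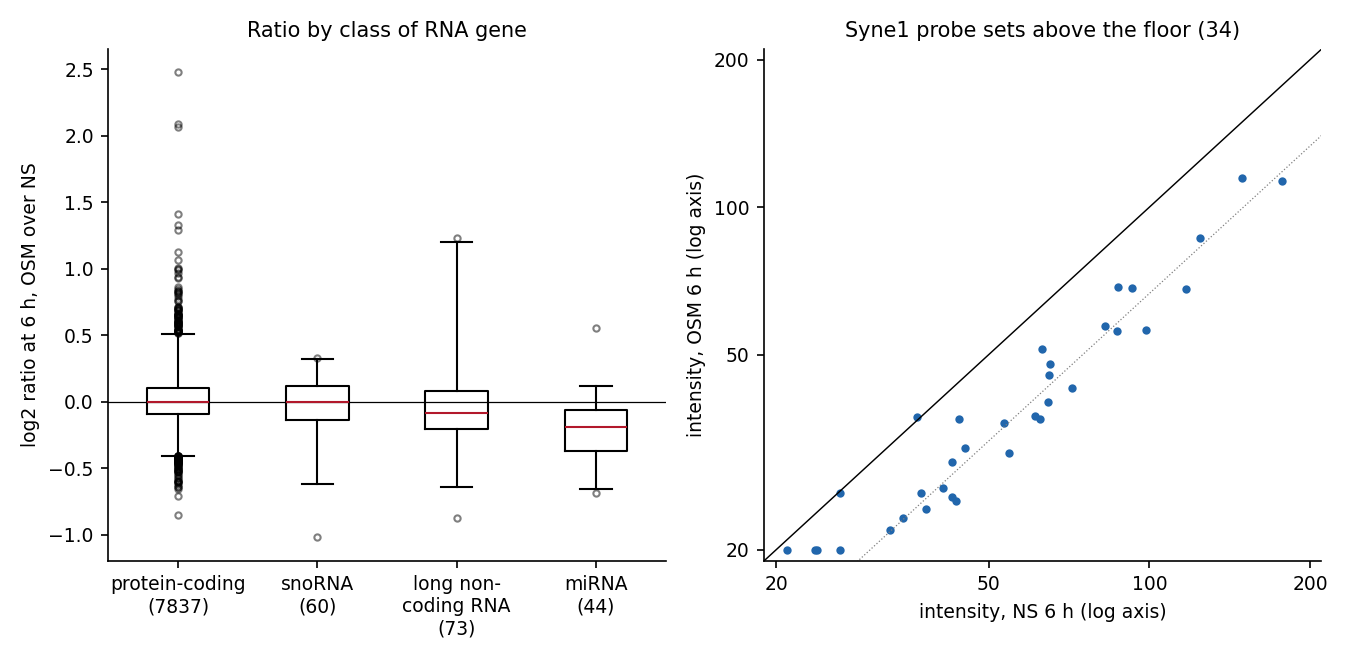
Left, log2 ratio of OSM 6 h over NS 6 h by class of RNA gene (number of genes in brackets); the red line is the median, the box the quartiles, the whiskers the 1st and 99th percentiles and the circles the genes beyond them, with the miRNA median at -0.19. Right, the 34 Syne1 probe sets above the floor, NS 6 h against OSM 6 h on log axes with the solid line at equal intensity and the dotted line at 1.5-fold lower; 33 points lie below the solid line.

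The 24 h arrays had no part in the ratio at 6 h and entered only the choice between several probe sets of a gene, so the same genes were read there. Of the 60 genes that were 1.5-fold higher at 6 h, 52 had a ratio above 0 at 24 h (86.7%, against 52.6% of all 8101 genes). Of these 60, 23 were at least 1.5-fold higher at 24 h and 11 were at least 2-fold higher. Over the 8164 genes above the floor on either 24 h array, these shares were 0.674% and 0.184%. The 12 genes past 2-fold at 6 h were all above 0 at 24 h, 10 of them past 1.5-fold, with a median log2 ratio of 1.26 at both times. The 48 genes between 1.5-fold and 2-fold had a lower median at 24 h, 0.34 against 0.68 at 6 h, and 40 of them were above 0. The 8 genes with a ratio below 0 at 24 h included Cxcl1 (-0.66), Acpp (-0.39), Denn2b (-0.28) and Rgs16 (-0.25). Some ratios were larger in the later pair. Serpinb2 went from a log2 ratio of 0.93 to 1.90, Krt6a from 1.13 to 1.87 and Dmkn from 0.60 to 1.08. Of the 22 lower genes 14 were below 0 at 24 h (63.6%, against 45.7% of all 8101 genes) and 2 were at least 1.5-fold lower. The share at least 1.5-fold lower was 0.551% of the 8164 genes. No gene's 6 h and 24 h ratios were tested against each other.

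**Figure D5:**
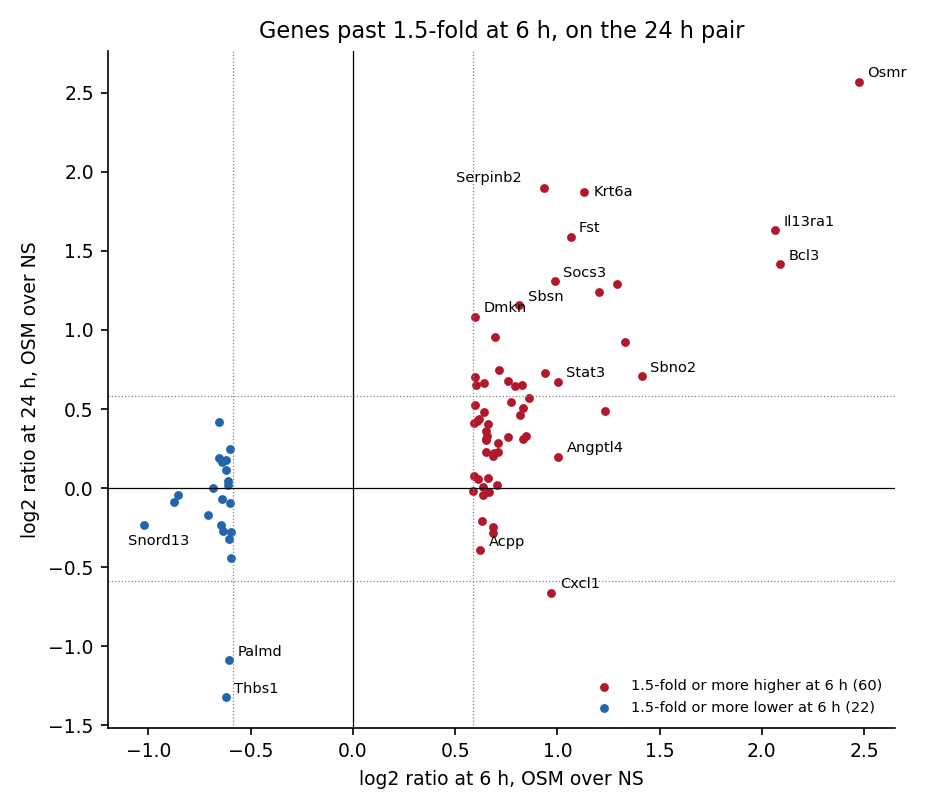
Log2 ratio of OSM over NS at 6 h (x axis) and at 24 h (y axis) for the 60 genes at least 1.5-fold higher (red) and the 22 genes at least 1.5-fold lower (blue) at 6 h, with dotted lines at 1.5-fold. Of the red points 52 lie above 0 at 24 h, with Osmr highest at 2.57 and Cxcl1 lowest at -0.66, and the lower blue points are Thbs1 and Palmd.

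For some of these genes the NS 24 h array was beyond the OSM 6 h array. It was brighter in 23 of the 60 higher genes, of which 1 was among the 12 genes past 2-fold, and it was dimmer in none of the 22 lower genes. Over all 8101 genes the NS 24 h array was brighter than the OSM 6 h array in 53.1% and dimmer in 46.0%. The choice of genes by their 6 h ratio lowers both counts in advance, so the gap to these shares is not read. With 1 NS array at 6 h, the effect of OSM and an offset of that array cannot be told apart for a single gene. When the NS 6 h and NS 24 h values were averaged as the control, Urah (log2 ratio 0.95), Stat3 (0.80), Fst (0.75), U90926 (0.64), Gm19705 (0.60) and Angptl4 (0.59) were short of 2-fold. Osmr, Bcl3, Il13ra1, Sbno2, Nek6 and Krt6a stayed past it, and Cxcl1 (-0.25), Rgs16 (-0.16) and Nppb (-0.11) had the opposite sign. Both OSM arrays lay above both NS arrays in 11 of the 12 genes past 2-fold and in 25 of the 48 genes between 1.5-fold and 2-fold, against 28.4% of all 4033 genes with a 6 h ratio above 0. On the lower side both OSM arrays lay below both NS arrays in 14 of the 22 genes, against 27.2% of 4068 genes with a ratio below 0. The choice of genes by their 6 h ratio fixes part of this order, so nothing is read from the gap to those shares.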

How the data were processed

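RNA of PDVC57 cells was measured on 4 Affymetrix arrays, 1 for each of NS and OSM at 6 h and 24 h. The authors deposited probe set intensities on a linear scale with a floor of 20. Affymetrix Expression Console is named in the submitters' processing notes. Its version and settings, the normalization between arrays and the genome build: not given in the sources used here. A fold against the floor is a lower bound.

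Of 41345 probe sets 23521 were paired with 1 gene by the platform annotation, 1820 with several and 16004 with none. For the 1082 of the 22180 genes that had several, the probe set of highest mean log2 intensity over the 4 arrays stood for the gene. Gene IDs of 21994 genes were found in RefSeq (GRCm38.p6). The log2 ratio of OSM 6 h over NS 6 h was taken for the 8101 genes above the floor on either array, in Python 3.11.15 with numpy 2.4.6 and pandas 2.3.3, and limma 3.58.1 in R 4.3.3 gave the normalization alternatives. The ratio script was checked on simulated data. With 1 array per group there is no test and no p-value, and the number of arrays limits the precision.

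Genes were named if they were past 2-fold, past 1.5-fold and on a gene list, among the other 15 highest and 15 lowest past 1.5-fold (predicted, RIKEN, small RNA and olfactory or vomeronasal receptor genes and pseudogenes left out), next to a threshold, in the receptor, STAT, identity or housekeeping lists, or among the 4 largest ratios of a list. Acpp, Bhlhe40, Ehf, Glrx, Sgk1, Sh2d5, Snord43, Mir31, Mir185, Mir761, list members at the floor and members such as Myc, Mcl1, Icam1, Hif1a, Jun and Ivl lie outside this rule and were chosen after their values were seen. The members and lists were chosen with earlier results of these data known.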

Additional observations from a re-analysis of the deposited data

Results flagged for a closer look

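The ratio of Cxcl1 pointed in opposite directions at the 2 times, with a log2 ratio of OSM over NS of 0.97 at 6 h and -0.66 at 24 h. With 1 array per group this difference was not tested.

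Probe sets that the annotation pairs with no gene were outside the counts of genes. Of 2715 such probe sets above the floor at 6 h, 18 were at least 2-fold higher and 24 at least 2-fold lower with OSM. Their log2 ratios had an SD of 0.34, against 0.18 for the named genes.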

How the results depend on the processing

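A floor of 40 gave 37 genes 1.5-fold higher and 10 lower. Osmr (1.59), Bcl3 (1.39) and Il13ra1 (1.06) stayed past 2-fold, while Fst (0.49), Gm19705 (0.48) and Angptl4 (0.27) did not, and Sbsn (0.032) and Tgfbi (0.044) lost 1.5-fold. Setting OSM 6 h over the average of the NS 6 h and NS 24 h arrays gave 7 genes past 2-fold higher, 6 of them among the 12, and 29 past 1.5-fold, 24 of them among the 60. On the lower side it gave 25 genes, of which 6 were shared, and the 1 past 2-fold was not Snord13. Cxcl1 (-0.25), Nppb (-0.11) and Rgs16 (-0.16) changed sign under that control, and Slpi was at 0.0065. Leaving out the small RNA, predicted and RIKEN genes gave 0 genes past 2-fold and 12 past 1.5-fold on the lower side, as fewer genes were counted. The cause of the other shifts was not tested.

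The other 7 alternatives kept each count within 1.5-fold, with 11 to 13 genes 2-fold higher and 54 to 66 genes 1.5-fold higher. These were centring of each array, quantile normalization, cyclic loess, averaging a gene's probe sets, choosing the probe set on the 6 h arrays, requiring both arrays above the floor, and no filter. They moved the median gene by at most 0.016. No list median moved by 1.5-fold or more where a median could be taken. No paired analysis was possible because each group has 1 array and so the groups share fewer than 2 replicate numbers. A fit of OSM and time over all 4 arrays, which tests a change common to both times, was not run.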
